A study of Mus musculus with 18 samples.

Results

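The genes described here encode the core of the synaptic vesicle release machinery: Snap25, Stx1a, Vamp2, Vamp1, Syt1, Syp, Cplx1, Cplx2 and Cplx3. They were taken from the deposited count table as the rows whose gene ID, version dropped, carries these symbols in the GENCODE mouse M21 annotation, which gave 9 of 54281 gene rows. The rule uses gene names and no measured value. The 9 genes and the gene lists used below were, however, chosen with earlier results of these data known. Bulk RNA sequencing covered cerebral cortex of male C57BL/6J mice labelled Mcph1KO or wild type (WT), at embryonic stage E17.5, at postnatal stage P4, and at a pair of later stages that the labels call A6w and A18w. R1, an established line of mouse embryonic stem cells (mESC) with the wild-type gene, was sequenced as well. Each of the 9 groups held 2 libraries, 18 in all, so each cortex stage had 4. The labels do not say whether 2 libraries of a group came from separate animals or cultures, so every p-value measures the spread between these libraries. They name neither the Mcph1 allele nor how the tissue was taken beyond homogenised cortex.

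At a presynaptic terminal, transmitter leaves the cell when a vesicle fuses with the plasma membrane. Vamp2 or Vamp1 on the vesicle zips together with Snap25 and Stx1a on the plasma membrane into a SNARE bundle that pulls the membranes into contact. Syt1 senses the calcium that triggers fusion, complexins bind the assembled bundle and both hold it back and help it fire, and Syp is an abundant vesicle membrane protein that binds Vamp2. In rodent cortex most synapses form after birth, so these genes are widely used as readouts of synapse formation.

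The totals ran from 23531045 to 32041849 counts per library. Cortex markers were present in all 16 cortex libraries (the 8 listed genes summed to 552 to 2110 CPM, the count scaled to the size of the library). Emx1, a transcription factor of the dorsal forebrain, was at 55.3 and 39.5 CPM in WT cortex at E17.5 and at 0.0425 and 0.107 CPM in the stem cells, scaled to total counts. Mcph1 itself measured 12.2 and 13.2 CPM in Mcph1KO against 12.5 and 10.1 CPM in WT at E17.5, and 14.7 and 13.4 against 12.3 and 10.7 CPM at P4. It measured 16.2 and 16.6 CPM in Mcph1KO against 9.66 and 9.02 CPM in WT at A6w, and 13.9 and 11.7 against 8.36 and 9.72 CPM at A18w. The Mcph1KO libraries were thus within the WT range or above it, a total over the gene says nothing of single exons, and the genotype is given as labelled. Some libraries stood apart in markers of neighbouring tissue. Thalamic markers (6 genes) summed to 336 CPM in P4 WT replicate 1, against 68.2 to 97.5 CPM in the other P4 libraries. At E17.5 they summed to 223 CPM in Mcph1KO replicate 2 and 296 CPM in WT replicate 2, against 82.8 and 82.6 CPM in the libraries numbered 1. Choroid plexus markers (6 genes) varied between libraries of a stage, from 6.1 to 970 CPM at E17.5, 5.66 to 776 at P4, 5.89 to 18 at A6w and 5.38 to 697 at A18w. Striatal markers (7 genes) reached 1980 CPM in A18w Mcph1KO replicate 1 and 2480 in A18w WT replicate 1, against 779 and 528 in the other A18w libraries, and all 4 were above the A6w range of 218 to 357 CPM. Oligodendrocyte markers (6 genes) were highest in the A6w and A18w WT libraries numbered 1, at 8170 and 10800 CPM, against 4580 to 5830 in the other 6 libraries of these stages.

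The promoters of 7 of the 9 genes had an entry in the RefSeq promoter table (GRCm38.p6), and Snap25 and Vamp2 are named only. Windows of 250 bases before the start are shown for 3 genes whose windows hold none of their own exons: Stx1a for the plasma membrane SNAREs, and Cplx1 and Cplx3 as paralogues with different courses below. Capitals mark GC boxes (GGGCGG, the Sp1 motif) and short CRE sites (TGACG, bound by CREB), searched on both strands, so that a GC box on the other strand reads CCGCCC. The Cplx1 window also overlaps an exon of the predicted gene Gm43364.

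Stx1a, chr5:135023232-135023481, plus strand: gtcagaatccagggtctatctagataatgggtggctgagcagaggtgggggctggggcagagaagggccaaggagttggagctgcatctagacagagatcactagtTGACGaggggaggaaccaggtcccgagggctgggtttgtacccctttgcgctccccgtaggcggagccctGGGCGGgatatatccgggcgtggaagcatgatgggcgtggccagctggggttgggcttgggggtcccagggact
Cplx1, chr5:108550028-108550277, minus strand: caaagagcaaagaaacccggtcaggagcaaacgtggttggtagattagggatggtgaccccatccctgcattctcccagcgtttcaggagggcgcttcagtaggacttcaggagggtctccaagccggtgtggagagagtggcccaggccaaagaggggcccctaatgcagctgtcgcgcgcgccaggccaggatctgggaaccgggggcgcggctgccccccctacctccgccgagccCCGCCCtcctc
Cplx3, chr9:57606282-57606531, minus strand: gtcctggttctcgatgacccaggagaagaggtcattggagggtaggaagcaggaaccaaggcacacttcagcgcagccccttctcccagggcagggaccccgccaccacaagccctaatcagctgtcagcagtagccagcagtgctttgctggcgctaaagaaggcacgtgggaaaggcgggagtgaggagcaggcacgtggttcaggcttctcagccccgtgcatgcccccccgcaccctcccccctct

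Stx1a held 1 GC box and 1 short CRE site in its 62.0% GC window, Cplx1 held 1 GC box at 64.8% GC, and Cplx3 held neither motif at 62.8% GC, where the median over 32841 promoters was 52.4%. A GC box was present in 5 of the 8 windows of the release genes (Syt1 has 2 windows) and in 32.7% of all promoters. A short CRE site was present in 1 of 8 and in 17.8% of all. The letters TTCAGCACC and GGACAGCGC, the left and right parts of the RE1 element bound by the neuronal repressor REST, were in none of the 8 windows and in 0.301% and 0.304% of all promoters. These matches describe letters in a short window and no binding.

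Across the cortex all 9 genes were higher at the later stages, and the sum of the 9 was separate between E17.5, P4 and the later stages, with overlap between A6w and A18w. Together they held 0.116% to 0.13% of all counts at E17.5, 0.182% to 0.293% at P4, 0.824% to 0.904% at A6w and 0.868% to 0.944% at A18w. With A6w and A18w pooled (8 libraries) against E17.5 (4 libraries), 9 of 9 rose in edgeR's quasi-likelihood test with Benjamini-Hochberg adjustment over all 19199 genes tested, where 33.5% of all genes rose. No library of A6w or A18w overlapped with any E17.5 library for any of the 9 genes, and 27.4% of all genes showed that in the same direction. The median log2 fold change was 3.28 for the 9 genes and -0.04 for all genes tested. In bulk tissue, fewer cells of a type and less RNA of a gene per cell cannot be told apart. For comparison, 10 genes listed as pan-neuronal summed to 3740 to 4380 CPM at A6w and A18w against 5650 to 6100 CPM at E17.5. Of the 10, 5 were higher and 4 lower, so the sum does not stand for each gene. Scaled to total counts, Dcx and Tubb3 measured 1990 and 2010 CPM in E17.5 WT replicate 1. In A6w WT replicate 1 they measured 22.1 and 253 CPM. Eno2 and Nefl measured 40.9 and 57.4 CPM in the former library and 795 and 510 CPM in the latter. Markers of GABAergic neurons (7 genes) summed to 1170 to 1570 CPM at A6w and A18w against 363 to 541 CPM at E17.5. By edgeR, 7 of 7 GABAergic, 6 of 6 astrocyte, 6 of 6 oligodendrocyte and 6 of 6 microglial markers were higher at A6w and A18w, with median log2 fold changes of 1.74, 4.27, 6.87 and 2.22. In the other direction, 6 of 8 radial glial, 5 of 6 excitatory, 5 of 6 thalamic and 5 of 6 choroid plexus markers were lower. The part of this changed cell makeup in the results on the 9 genes was not tested.

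**Figure D1:**
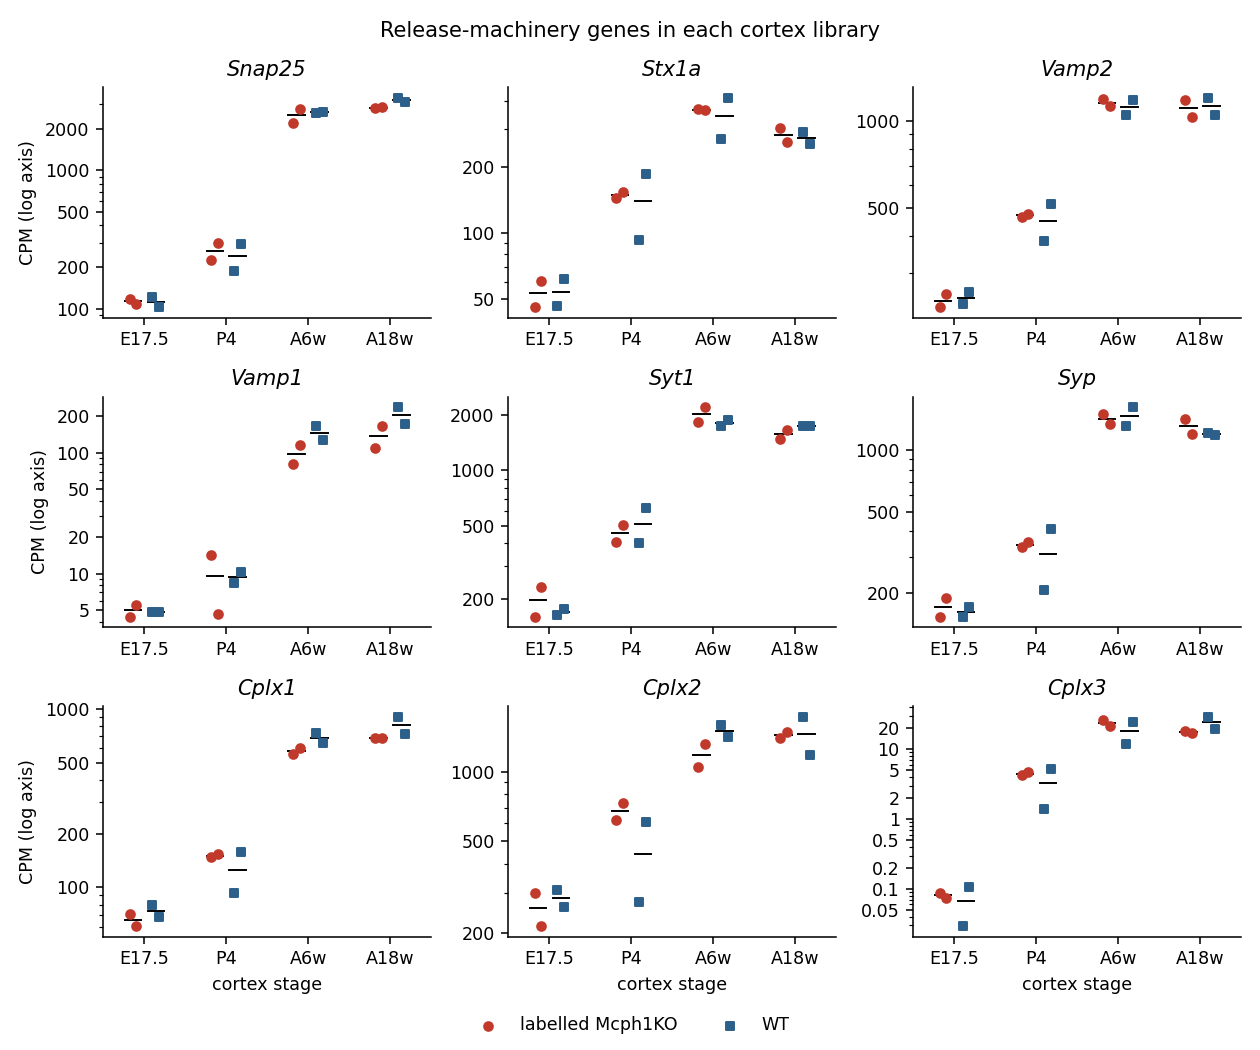
Levels of the 9 genes in each of the 16 cortex libraries, in CPM on a log axis that differs between panels, with libraries labelled Mcph1KO (red circles) left of WT (blue squares) at each stage and a bar at the mean of 2 libraries. Every A6w and A18w value lies above every E17.5 and P4 value of the same gene, and the genotypes differ little beside the stages.

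Snap25, which supplies 2 of the helices of the SNARE bundle from the plasma membrane side, is on chromosome 2 (136713453 to 136782428, plus strand, GRCm38; all gene positions below are of this build). At E17.5 it measured 118 and 109 CPM in the libraries labelled Mcph1KO and 122 and 103 CPM in WT, and at P4 227 and 298 CPM in Mcph1KO and 189 and 296 CPM in WT. At A6w it measured 2200 and 2790 CPM in Mcph1KO and 2580 and 2650 CPM in WT, and at A18w 2820 and 2840 CPM in Mcph1KO and 3340 and 3100 CPM in WT. The 3 blocks of E17.5, P4 and later libraries were separate, and the lowest A6w library was well above the highest P4 one. The log2 fold change of A6w and A18w over E17.5 was 4.62 ± 0.16 (standard error here and below, n = 8 and 4, edgeR adjusted p = 1.38e-10).

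Stx1a, the syntaxin that pairs with Snap25 and recruits the calcium channels of the terminal (chromosome 5, 135023482 to 135051100, plus strand), had a flatter course. It measured 46 and 60.5 CPM in Mcph1KO and 46.7 and 61.6 CPM in WT at E17.5, and 144 and 154 CPM in Mcph1KO and 93.5 and 186 CPM in WT at P4. It measured 367 and 364 CPM in Mcph1KO and 270 and 415 CPM in WT at A6w, and 303 and 260 CPM in Mcph1KO and 290 and 255 CPM in WT at A18w. E17.5 and P4 did not overlap, nor did P4 and A6w, while A18w lay mostly below A6w with overlap. Stx1a was higher in A6w and A18w than in E17.5 by a log2 fold change of 2.54 ± 0.20 (edgeR adjusted p = 9.57e-08).

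Vamp2, the main vesicle SNARE of forebrain synapses (chromosome 11, 69088490 to 69092384, plus strand), changed least of the 9 by the estimate. It measured 228 and 252 CPM in Mcph1KO and 234 and 257 CPM in WT at E17.5, and 467 and 478 CPM in Mcph1KO and 384 and 516 CPM in WT at P4. It ran from 1120 to 1190 CPM in Mcph1KO and 1050 to 1180 CPM in WT at A6w, and from 1030 to 1180 CPM in Mcph1KO and 1050 to 1200 CPM in WT at A18w. P4 lay above E17.5 and the later stages above P4, without overlap, and A6w and A18w covered the same range. Over E17.5, A6w and A18w had a log2 fold change of 2.21 ± 0.11 (edgeR adjusted p = 1.85e-09), close to that of Cplx2 below, and the difference between these genes was not tested.

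Vamp1, the paralogue of Vamp2 that serves the neuromuscular junction and many brainstem and spinal synapses in mice (chromosome 6, 125215551 to 125245964, plus strand), was at a low level at both early stages. It measured 4.42 and 5.51 CPM in Mcph1KO and 4.81 and 4.81 CPM in WT at E17.5, and 14.4 and 4.68 CPM in Mcph1KO and 8.43 and 10.3 CPM in WT at P4. At A6w it measured 81 and 115 CPM in Mcph1KO and 166 and 127 CPM in WT, and at A18w 109 and 168 CPM in Mcph1KO and 238 and 173 CPM in WT. P4 overlapped with E17.5 through P4 Mcph1KO replicate 2, whereas all 8 later libraries lay above all 8 early ones. Over E17.5, the log2 fold change of A6w and A18w was 4.86 ± 0.31 (edgeR adjusted p = 1.31e-08). At both later stages its highest value was in WT replicate 1, the library with the highest oligodendrocyte marker sum of its stage, and the part of that in the Vamp1 values was not tested.

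Syt1, the calcium sensor of fast release (chromosome 10, 108497650 to 109010982, minus strand), measured 160 and 232 CPM in Mcph1KO and 163 and 176 CPM in WT at E17.5, and 409 and 502 CPM in Mcph1KO and 401 and 622 CPM in WT at P4. It measured 1830 and 2200 CPM in Mcph1KO and 1750 and 1880 CPM in WT at A6w, and 1470 and 1660 CPM in Mcph1KO and 1740 and 1730 CPM in WT at A18w. All 4 A18w libraries lay below all 4 A6w libraries, and the stages before them were each separate. For Syt1 the log2 fold change of A6w and A18w over E17.5 was 3.28 ± 0.16 (edgeR adjusted p = 1.59e-09). Syp, synaptophysin (chromosome X, 7638471 to 7653256, plus strand), ran from 154 to 189 CPM at E17.5, 207 to 413 at P4, 1310 to 1610 at A6w and 1180 to 1410 at A18w, with a log2 fold change of 3.0 ± 0.18 (edgeR adjusted p = 8.09e-09).

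The complexins differed among themselves. Cplx1 (chromosome 5, 108518554 to 108550024, minus strand) ran from 60.6 to 70.8 CPM in Mcph1KO and 68.3 to 79.4 CPM in WT at E17.5, and measured 147 and 154 CPM in Mcph1KO and 93.3 and 157 CPM in WT at P4. It then measured 555 and 601 CPM in Mcph1KO and 733 and 640 CPM in WT at A6w, and 682 and 688 CPM in Mcph1KO and 903 and 718 CPM in WT at A18w, with no overlap between E17.5, P4 and the later stages. For Cplx1 the log2 fold change of A6w and A18w over E17.5 was 3.30 ± 0.15 (edgeR adjusted p = 1.18e-09).

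Cplx2, the complexin most used by forebrain excitatory neurons in rodents (chromosome 13, 54371349 to 54383917, plus strand), was already at 298 and 215 CPM in Mcph1KO and 309 and 261 CPM in WT at E17.5. At P4 it measured 620 and 735 CPM in Mcph1KO and 272 and 608 CPM in WT, so P4 WT replicate 1 fell inside the E17.5 range. It ran from 1050 to 1320 CPM in Mcph1KO and 1410 to 1590 CPM in WT at A6w, and from 1400 to 1490 CPM in Mcph1KO and 1180 to 1730 CPM in WT at A18w. All 8 later libraries lay above all P4 libraries, with a log2 fold change over E17.5 of 2.36 ± 0.21 (edgeR adjusted p = 3.72e-07).

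Cplx3, the complexin of retinal ribbon synapses that in mouse cortex marks subplate and layer 6b neurons (chromosome 9, 57599992 to 57606281, minus strand), was close to absent before birth. Its E17.5 libraries held 3 and 2 counts in Mcph1KO and 1 and 3 counts in WT. It measured 4.32 and 4.65 CPM in Mcph1KO and 1.37 and 5.18 CPM in WT at P4, and 26.1 and 21.3 CPM in Mcph1KO and 12 and 24.6 CPM in WT at A6w. At A18w it measured 18.5 and 17 CPM in Mcph1KO and 29.2 and 19.2 CPM in WT. The E17.5, P4 and A6w ranges were all separate, and A18w overlapped with A6w. A6w and A18w over E17.5 gave a log2 fold change of 8.07 ± 0.51 (edgeR adjusted p = 1.32e-08), a size that rests on 9 counts in all at E17.5. Other layer 6b markers (6 genes, Cplx3 left out) summed to 128 to 160 CPM at E17.5, 158 to 240 at P4, 188 to 311 at A6w and 209 to 283 at A18w. Single genes of this sum went both ways, here scaled to total counts. Nxph4 ran from 15.6 to 22.9 CPM at E17.5 and from 2.44 to 6.68 CPM at A6w and A18w. Ccn2 ran from 6.76 to 14.7 CPM at E17.5 and from 17.1 to 51.1 CPM at A6w and A18w. The fourth complexin gene, Cplx4, had 5 counts in the 18 libraries together and was not tested.

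Per kilobase of transcript, levels of different genes can be set side by side. By the mean of a stage, Vamp2 led the 9 genes before and just after birth and Snap25 led later. With the length of the longest coding transcript, Vamp2 averaged 110 CPM per kb at E17.5 (range 103 to 117), ahead of Syp at 64.5 (59.4 to 73). At A6w Snap25 averaged 1210 CPM per kb, ahead of Syp at 556 and Vamp2 at 516, and at A18w 1430 against 481 and 506. Vamp2 at E17.5 and P4 and Snap25 at A6w and A18w also led when the length of all exons was used, but the order below them changed with the length. Vamp1 and Cplx3 held the lowest places at all 4 stages with both lengths, at 40.6 and 7.34 CPM per kb of the longest coding transcript at A6w. Salmon's own transcript lengths were not used here, so these levels hold only as far as the chosen transcript is the one expressed.

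The change was then divided into its steps. In P4 over E17.5, 9 of 9 rose by edgeR, against 18.9% of all genes, and 7 of 9 did so without overlap between the 4 P4 and 4 E17.5 libraries, against 17.9% of all genes. The exceptions in overlap were Cplx2 and Vamp1. Among the members of the SNARE bundle, the log2 fold changes were 1.16 ± 0.15 for Snap25 (adjusted p = 0.000128), 1.43 ± 0.21 for Stx1a (adjusted p = 0.000275) and 0.93 ± 0.11 for Vamp2 (adjusted p = 0.000106), all from edgeR with n = 4 each. Syt1 rose by 1.41 ± 0.16 and Syp by 0.97 ± 0.18. Of the complexins, Cplx1 rose by 0.98 ± 0.15, Cplx2 by 1.01 ± 0.22 (edgeR adjusted p = 0.00335) and Cplx3 by 5.64 ± 0.53 (edgeR adjusted p = 3.23e-05). The Cplx3 value starts from 1 to 3 counts per E17.5 library.

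Vamp1 passed only narrowly, at 0.95 ± 0.29 (edgeR adjusted p = 0.0214). Its call was lost without P4 Mcph1KO replicate 1 (0.44, adjusted p = 0.153), without P4 WT replicate 2 (0.87, adjusted p = 0.0679), without E17.5 Mcph1KO replicate 1 (0.87, adjusted p = 0.0820) and without E17.5 WT replicate 1 (0.95, adjusted p = 0.0663). P4 WT replicate 1, the library with the high thalamic marker sum, was the lowest P4 library for 8 of the 9 genes, and its part in the P4 levels was not tested. Without it all 9 were still called, with larger log2 fold changes, such as 1.24 for Cplx2 and 1.63 for Stx1a. Without P4 WT replicate 2, the highest P4 library for several genes, Cplx2 was at 0.66 (adjusted p = 0.0132).

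In A6w over P4, 9 of 9 rose by edgeR, against 27.3% of all genes, and all 9 did so without overlap, against 25.8% of all genes. Vamp1 (3.66 ± 0.30, adjusted p = 4.67e-07) and Snap25 (3.34 ± 0.16, adjusted p = 6.76e-09) changed most in this edgeR fit. They were followed by Cplx3 at 2.44 ± 0.35, Cplx1 at 2.20 ± 0.16, Syp at 2.14 ± 0.18 and Syt1 at 1.99 ± 0.16. Vamp2 at 1.30 ± 0.12, Stx1a at 1.29 ± 0.20 and Cplx2 at 1.29 ± 0.22 changed least and lay within a standard error of each other.

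**Figure D2:**
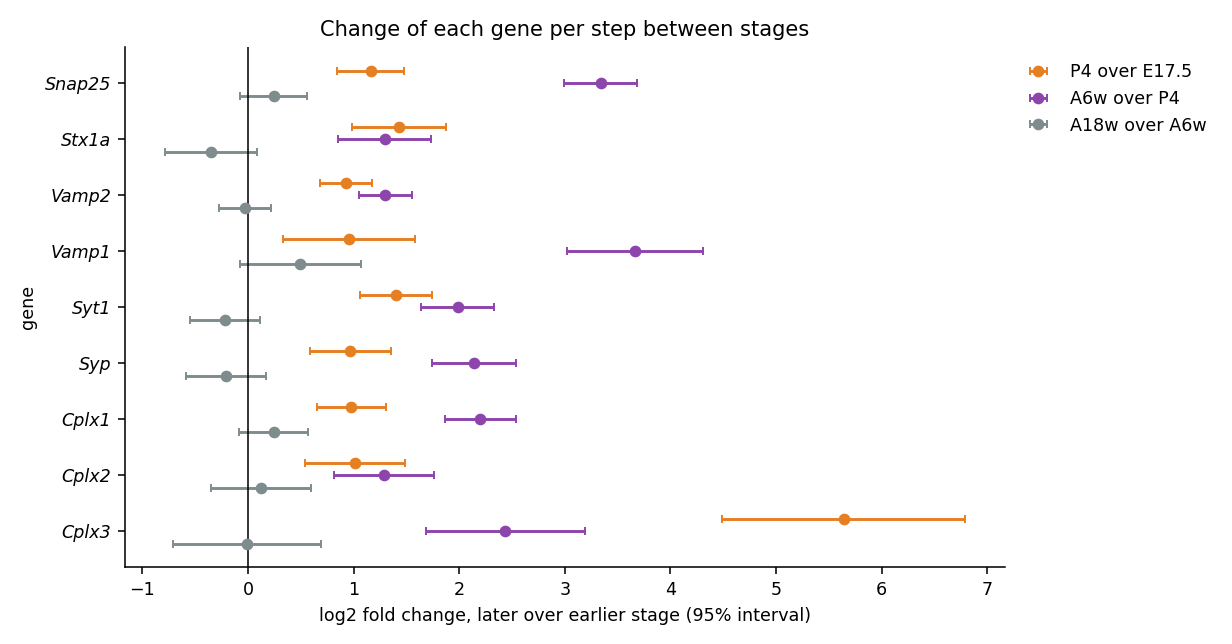
Log2 fold change of each of the 9 genes, later over earlier stage, for the steps P4 over E17.5 (orange), A6w over P4 (purple) and A18w over A6w (grey), with 95% intervals from the fit of the 16 cortex libraries. Snap25 and Vamp1 have their largest step at A6w, at 3.34 and 3.66, Cplx3 has its largest at P4, at 5.64, and the intervals of the last step all include 0. The Cplx3 step to P4 starts from 1 to 3 counts per E17.5 library.

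Whether the 2 steps differed in size was tested in the same fit, as the difference of A6w over P4 minus P4 over E17.5. This contrast was added after the values had been seen. It compares whole steps and not rates, since the time between stages was not taken into account. Of the 9 genes, 4 had the larger step to A6w and 1 the larger step to P4 by edgeR, where 31.5% of all genes were called, 14.8% in the first direction and 16.8% in the second. The larger step to A6w was found for Vamp1 (2.71 ± 0.51, adjusted p = 0.00171), Snap25 (2.18 ± 0.27, adjusted p = 8.15e-05), Cplx1 (1.22 ± 0.27, adjusted p = 0.00416) and Syp (1.17 ± 0.31, adjusted p = 0.0134). Cplx3 had the larger step to P4 (-3.20 ± 0.75, adjusted p = 0.00633), a size that rests on 1 to 3 counts per E17.5 library. Syt1 (0.58, 95% interval -0.01 to 1.17), Vamp2 (0.38, -0.05 to 0.81), Cplx2 (0.27, -0.54 to 1.09) and Stx1a (-0.13, -0.89 to 0.62) were not called, and for each the interval left room for a difference either way. The count rested in part on single libraries. Without P4 WT replicate 2 it was 8 of 9, 7 of them with the larger step to A6w, as Syt1 (0.97, adjusted p = 0.0200), Vamp2 (0.64, adjusted p = 0.0305) and Cplx2 (1.00, adjusted p = 0.0341) joined, and without P4 Mcph1KO replicate 1 it was 4, as Syp (1.13, adjusted p = 0.0566) dropped out. Without P4 WT replicate 2, Syp was at 1.79 and Cplx3 at -1.91, and without P4 WT replicate 1 Syp was at 0.76, all 3 still called.

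Between the stages labelled A6w and A18w no gene of the 9 was called, where 0.135% of all genes were, and none of the 9 had an unadjusted p under 0.05. DESeq2 also called 0 of 9. Snap25 was higher in all 4 A18w libraries than in all 4 A6w libraries (0.24, 95% interval -0.07 to 0.56), and Syt1 was lower in all 4 (-0.22, -0.55 to 0.12). Such separation was seen in 2.95% of all genes upward and 3.3% downward. Vamp1 had the largest estimate (0.50 ± 0.27, edgeR adjusted p = 0.634, 95% interval -0.08 to 1.07). It was called when no filter on low counts was used (edgeR adjusted p = 0.0293). That setting also called far more genes over the whole table, as given under the processing below. Without A18w WT replicate 1, which had high oligodendrocyte and striatal marker sums, the Vamp1 estimate was 0.37. For Stx1a the estimate was -0.35 (95% interval -0.79 to 0.08). Striatal markers differed between these stages, with 7 of 7 higher in A18w without overlap and 3 of 7 called, and their part in the values of the 9 genes was not tested. The 26 genes called over the whole table in this comparison became 2 without A6w WT replicate 2 or A6w Mcph1KO replicate 2, and 93 without A18w WT replicate 2.

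Paralogues were set against each other within each library, as a ratio of counts that needs no scaling between libraries. Vamp1 counts were 1.87% to 2.19% of Vamp2 counts at E17.5, 0.981% to 3.08% at P4, 6.78% to 15.8% at A6w and 9.25% to 19.9% at A18w. Cplx1 counts were 23.7% to 28.2% of Cplx2 counts at E17.5, 21.0% to 34.2% at P4, 45.4% to 53.0% at A6w and 46.1% to 60.7% at A18w. Cplx3 counts were a trace at first, 0.00949% to 0.0406% of Cplx2 counts at E17.5, and then 0.504% to 0.853% at P4, 0.753% to 2.5% at A6w and 1.14% to 1.69% at A18w. In all 3 pairs the A6w and A18w libraries lay wholly above the E17.5 libraries.

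An exact two-sided permutation test over libraries, with 12 tests adjusted together by Benjamini-Hochberg, was applied to the log2 ratios. For A6w and A18w together against E17.5 (n = 8 and 4) the differences were 2.63 for Vamp1 over Vamp2, 0.93 for Cplx1 over Cplx2 and 5.54 for Cplx3 over Cplx2. Each of the 3 had an exact p = 0.00202, the smallest this design allows, and an adjusted p = 0.00808. For a single step between stages (n = 4 each) the smallest exact p is 0.0286, which no longer passes after adjustment (adjusted p = 0.0571). That value was reached in A6w against P4 by Vamp1 over Vamp2 (2.45) and Cplx1 over Cplx2 (0.88), and in P4 against E17.5 by Cplx3 over Cplx2 (4.40). In P4 against E17.5 the log2 ratio differed by -0.08 for Vamp1 over Vamp2 (exact p = 0.914) and by -0.01 for Cplx1 over Cplx2 (exact p = 0.886).

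**Figure D3:**
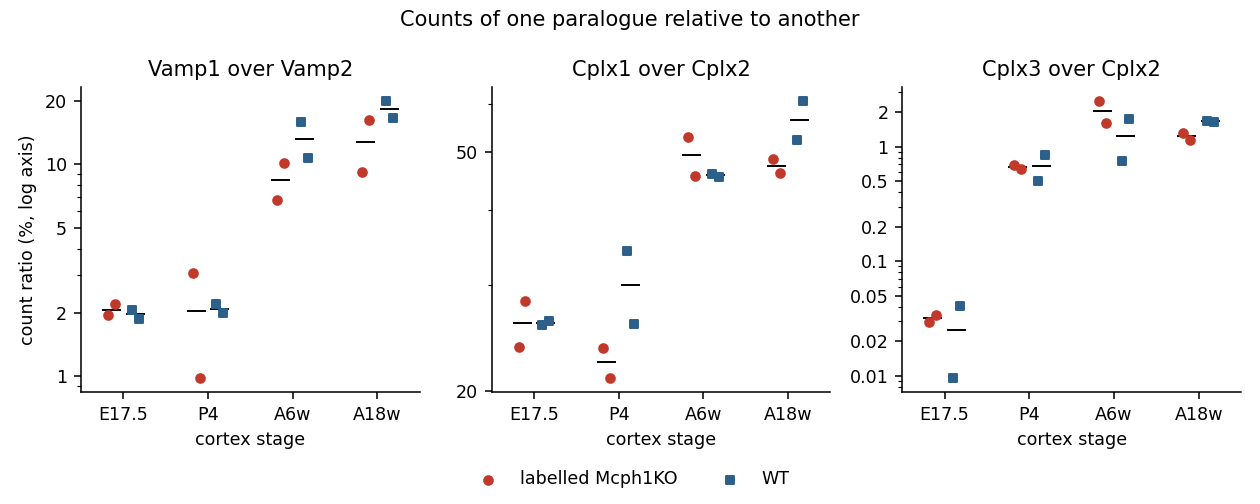
Counts of Vamp1 relative to Vamp2, and of Cplx1 and Cplx3 relative to Cplx2, in each cortex library as a percentage on a log axis that differs between panels, with libraries labelled Mcph1KO (red circles) left of WT (blue squares) and a bar at the mean of 2 libraries. Vamp1 over Vamp2 has medians of 1.99% at E17.5, 2.09% at P4, 10.4% at A6w and 16.4% at A18w, while Cplx3 over Cplx2 has medians of 0.0318% at E17.5 and 0.664% at P4.

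The wild-type E17.5 cortex was compared with the stem cells using all 10 libraries with the wild-type gene and 19466 genes. Of the 9 genes, 7 were higher in cortex by edgeR, against 35.3% of all genes, and the same 7 did not overlap, against 43.0% of all genes. Cplx2 measured 299 and 251 CPM in E17.5 cortex against 0.398 and 0.244 CPM in stem cells, a log2 fold change of 9.73 ± 0.55 (n = 2 each, edgeR adjusted p = 1.80e-07). Syt1 measured 158 and 169 CPM in cortex against 0.354 and 0.285 CPM (8.98 ± 0.36), and Snap25 118 and 99 CPM against 0.221 and 0.325 CPM (8.60 ± 0.38). These 3 genes had at most 9 counts in a stem cell library.

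Vamp2, Stx1a and Cplx1 were also measured at a few CPM or more in the stem cells. Vamp2 had 227 and 248 CPM in cortex against 14.1 and 13.5 CPM in stem cells (4.11 ± 0.24). Stx1a had 45.2 and 59.3 CPM in cortex against 7.91 and 7.53 CPM in stem cells (2.76 ± 0.35), and Cplx1 76.9 and 65.7 CPM against 5.22 and 3.82 CPM (3.98 ± 0.32). All 3 were separate between the groups but well above 0 in both. Syp had 149 and 165 CPM in cortex against 2.34 and 1.55 CPM in stem cells (6.34 ± 0.41). Vamp1 was at the same order of level in both, with 4.65 and 4.63 CPM in E17.5 cortex against 3.27 and 4.64 CPM in stem cells (0.23, 95% interval -0.34 to 0.80, not called). Cplx3 had 1 and 3 counts in cortex against 1 and 0 counts in stem cells, too few for a fold change.

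**Figure D4:**
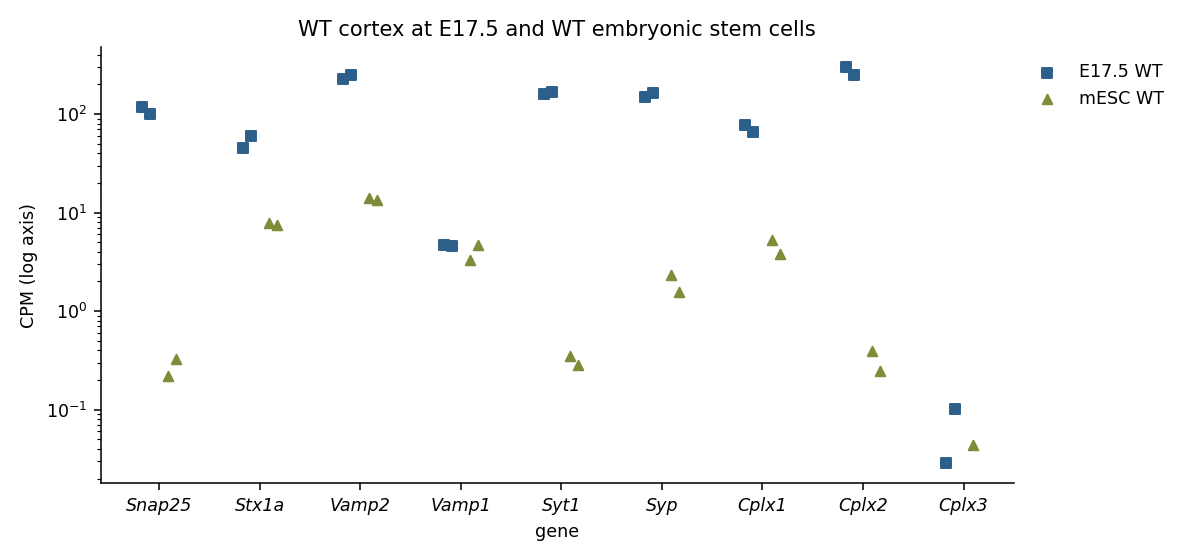
Levels of the 9 genes in the 2 WT cortex libraries at E17.5 (blue squares) and the 2 WT stem cell libraries (green triangles), in CPM on a log axis; the second stem cell library had 0 counts of Cplx3 and is not drawn there. Snap25, Syt1 and Cplx2 are under 0.4 CPM in the stem cells, and Vamp1 is between 3.27 and 4.65 CPM in both groups.

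The Mcph1KO libraries were set against WT within every stage and as a mean over the 4. No gene of the 9 was called at any single stage, where 0.0% of all genes were called, nor in the average, where 0.0521% were, nor in the test of genotype by stage, where 0.0% were. None of the 9 had an unadjusted edgeR p under 0.05 in any of these 6 comparisons, and DESeq2 called 0 of 9 in each. Averaged over the stages, the estimates ran from -0.27 ± 0.20 for Vamp1 (95% interval -0.69 to 0.15) to 0.17 ± 0.38 for Cplx3. The interval was narrowest for Vamp2 (0.02, -0.16 to 0.19), while Syt1 was at 0.01 (-0.23 to 0.25) and Snap25 at -0.03 (-0.26 to 0.19). These intervals show how large a difference between the labels the libraries would still allow, which at a single stage was wider.

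The largest estimate at a single stage among genes with more than a few counts was that of Cplx2 at P4, with 620 and 735 CPM in Mcph1KO against 272 and 608 CPM in WT (0.62 ± 0.31, 95% interval -0.04 to 1.29, edgeR adjusted p = 1). Both Mcph1KO libraries lay above both WT libraries there, and the estimate was 0.16 without P4 WT replicate 1 and 1.32 without P4 WT replicate 2. Vamp1 was lower in both Mcph1KO libraries than in both WT libraries at A6w (81 and 115 against 166 and 127 CPM, -0.58 ± 0.38) and at A18w (109 and 168 against 238 and 173 CPM, -0.57 ± 0.38), each with an edgeR adjusted p = 1. Cplx1 showed the same order at A6w (-0.25 ± 0.21) and at A18w (-0.24 ± 0.21). Without the WT library numbered 1, which had the high oligodendrocyte sum, the Vamp1 estimates were -0.37 at A6w and -0.32 at A18w, and the Cplx1 estimate at A18w was -0.07. Over all libraries left out in turn, Vamp1 ran from -0.85 to -0.35 at A6w and from -0.92 to -0.30 at A18w, and Cplx1 from -0.34 to -0.15 at A6w and from -0.40 to -0.07 at A18w. Separation of the 2 Mcph1KO libraries from the 2 WT libraries in the lower direction was seen for 3 of 9 genes at A6w (15.4% of all genes) and 5 of 9 at A18w (12.4% of all genes), and in the higher direction for Cplx2 alone at P4 (15% of all genes). At E17.5 none of the 9 was separate in either direction, where 9.83% of all genes were higher and 10.3% lower.

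The wider release pathway was counted from a list of 110 further genes in 9 role groups, of which 109 had a row (Vamp7 is not used here) and 108 were tested. In A6w and A18w together over E17.5, 80 rose and 17 fell by edgeR, against 33.5% and 35.5% of all genes, with a median log2 fold change of 1.43 over the 108. In the single steps 72 rose and 5 fell in P4 over E17.5, against 18.9% and 17.9% of all genes, and 67 rose and 19 fell in A6w over P4, against 27.3% and 27.8%. In A18w over A6w 1 fell and none rose; it was Erc1, an active zone scaffold, at -0.65 ± 0.11 (edgeR adjusted p = 0.0398), named after its value was seen, and the count was 0 without any of A18w WT replicate 1, A18w Mcph1KO replicate 1, A6w WT replicate 2 and either A6w Mcph1KO library, and 7 with DESeq2. In E17.5 cortex over stem cells 78 rose and 11 fell, against 35.3% and 32.7% of all genes, and none was called by edgeR between the genotype labels (1 by DESeq2, at A6w).

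Among the other SNARE genes (13 tested, a list that also holds Snap91, which by its name sits here but encodes a clathrin adaptor), 6 rose and 6 fell. Stx4a rose by 1.55 ± 0.15 on the log2 scale and Vamp4, a SNARE of endosomes and the Golgi, by 1.43 ± 0.09 (edgeR adjusted p at most 9.29e-07). Of the synaptotagmins and Doc2 genes, 10 of 14 rose and 1 fell. Syt2, the fast calcium sensor of many inhibitory and hindbrain synapses, rose by 4.43 ± 0.16, Syt12 by 3.97 ± 0.24 and Syt13 by 2.98 ± 0.43. Of the priming and fusion genes, 16 of 19 rose and 1 fell, among them Cadps2, which primes dense-core vesicles (3.42 ± 0.22), Nsf, the ATPase that takes spent SNARE bundles apart (3.20 ± 0.14), and Prrt2, which binds Snap25 (3.10 ± 0.18).

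Of the active zone genes, 10 of 14 rose and 3 fell, led by the scaffolds Rims1 (2.73 ± 0.18), Rimbp2 (2.66 ± 0.13) and Bsn (1.84 ± 0.22). Of the Rab3 group, 7 of 9 rose and 1 fell. Rab27b rose by 3.45 ± 0.27 and the Rab3 effector Rph3a by 2.79 ± 0.13, while Rab3d, the Rab3 of secretory cells outside the brain, was the one that fell (-1.77 ± 0.14). Of the vesicle membrane genes, 13 of 14 rose and 1 fell, led by Sv2b (4.29 ± 0.22), Syn2 (3.14 ± 0.17) and Syngr1 (2.91 ± 0.17). Of the transmitter loading genes, 7 of 10 rose and 2 fell, led by the vesicular zinc transporter Slc30a3 (6.71 ± 0.31), the vesicular glutamate transporter Slc17a7 (4.88 ± 0.35) and the proton pump subunit Atp6v1g2 (4.23 ± 0.15). Of the vesicle recycling genes, 11 of 15 rose and 2 fell, led by Pacsin1 (4.06 ± 0.19), the dynamin Dnm1 (3.63 ± 0.18) and the phosphatase Synj1 (2.23 ± 0.14). The genes named here by rule had an edgeR adjusted p of at most 3.52e-05.

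As a description, the genes outside the 9 whose log2 CPM followed each of them most closely over all 18 libraries (Pearson's r among 15808 genes ranked) are given here. For Syt1 they included Plcb1 and Stxbp5, for Vamp2 they were Sv2b (0.9982), Cacng3 and Ttyh1, and for Stx1a Scamp5 (0.9953), Ppp2r2c and Kcnc4. For Snap25 they were Vxn (0.9972), Gria3 and Cacnb4, for Cplx1 Prkcz (0.9976), Ppp3ca and Sfxn5, and for Cplx2 Fam131b (0.9975), Phactr1 and Phf24. Syp was closest to Slc1a2 (0.9978), the glutamate transporter of astrocytes, Smpd1 and Sv2a. Vamp1 was closest to Hipk4 (0.9901), Tmem88b and Etnppl, and Cplx3 to Rasal1 (0.9884), Gpr37l1 and Clptm1. The 18 libraries share the same strong contrast of stem cells, early and late cortex, so high values are common and carry no test.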

How the data were processed

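The deposited table holds estimated counts per gene as whole numbers, which the authors made with FastQC, Trimmomatic 0.39 and Salmon 1.4.0 on GRCm38.p6, per the submitters' processing notes. Such counts share out reads that match several genes. Total counts were 23531045 to 32041849 per library. GENCODE M21 gave a symbol to 54107 of 54281 IDs. No 2 libraries of a group were copies. The 9 genes, the pathway lists and the marker lists were chosen with earlier results of these data known.

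Counts were tested with edgeR 4.0.16 (R 4.3.3; filterByExpr with minimum count 10 and minimum total 15, TMM scaling, quasi-likelihood F tests, 1 mean per group, calls at an adjusted p under 0.05). One fit held all 16 cortex libraries (8 residual degrees of freedom), and another the stem cells and WT cortex (10 libraries, 5 residual degrees of freedom). CPM are TMM-scaled within each fit. Stage comparisons average the genotypes. Ratios had 0.5 added to each count. The difference of the steps was added after seeing the data. The cortex fit was also run on simulated data with planted changes, and the share of these recovered is not reported here. Other settings tried were RLE size factors, DESeq2 1.42.0, no low-count filter, all 18 libraries or only those compared, the replicate number as a block and each library left out. From each role list, up to 3 called genes of largest log2 fold change in A6w and A18w over E17.5 were named, with at least 1 CPM in either group, and for each of the 9 genes the 3 genes of highest correlation. Some genes that this rule names are not reported here.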

Additional observations from a re-analysis of the deposited data

Results flagged for a closer look

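In the 4 libraries of a stage, the highest or lowest value was set against the gap to its neighbour, divided by the range of the stage. Of 48 such groups 4 had a ratio above Dixon's 95% critical value, and chance gives about 1 in 20. At P4, Cplx1 was lowest in WT replicate 1, at 93.3 CPM against 147 to 157 CPM in the other 3, and this library also had the highest thalamic marker sum. At A18w, Cplx1 was highest in WT replicate 1, at 903 CPM against 682 to 718 CPM, in the library with the highest oligodendrocyte and striatal marker sums. At A18w, Syp was highest in Mcph1KO replicate 1, at 1410 CPM against 1180 to 1210 CPM. At A6w, the count ratio of Cplx1 over Cplx2 was highest in Mcph1KO replicate 1, at 53.0% against 45.4% to 46.0% in the other 3. The part of the tissue markers in these values was not tested.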

How the results depend on the processing

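All 9 genes kept their calls and directions in A6w over P4 and in A6w and A18w together over E17.5 under every alternative run, and 7 of 9 did in E17.5 cortex over stem cells. In P4 over E17.5 the count was 8 or 9 with a library left out. Without a filter on low counts 1 gene (Vamp1) was called in A18w over A6w. With a library left out the difference of the steps called 4 to 8 genes, and 8 without P4_WT replicate 2. The replicate numbers were not treated as pairs, because the labels give them no shared source and the correlation of deviations of same-numbered libraries was not over 0.1 at every stage, at 0.478 at E17.5, 0.209 at P4, 0.0829 at A6w and 0.295 at A18w. With the replicate block, no other call of the 9 genes changed than Syt1 in the difference of the steps (0.60, adjusted p = 0.0350, 6 of 9 genes called).

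In the wild-type libraries alone the 3 ratios of A6w and A18w over E17.5 were 2.97, 0.97 and 5.73 with an adjusted p = 0.267, where fewer libraries limit the exact test. There, the differences turned for Vamp1 over Vamp2 (0.091) and Cplx1 over Cplx2 (0.20) at P4 and for Cplx3 over Cplx2 at A18w against A6w (0.53). With a library left out these 3 ran from -0.31 to 0.24, from -0.15 to 0.088 and from -0.43 to 0.15. Cplx3 in A18w over A6w turned to 0.0016 with RLE size factors, 0.026 with the replicate block, 0.0020 with DESeq2 and 0.0038 with only the libraries compared; the cause was not tested. With a library left out, uncalled estimates crossed 0 for Cplx2 (-0.029 to 0.25), Cplx3 (-0.22 to 0.30) and Vamp2 (-0.078 to 0.017) in A18w over A6w, and for Cplx2 (-0.19 to 1.00) and Stx1a (-0.54 to 0.48) in the difference of the steps. They did for the averaged genotype difference of Cplx1 (-0.18 to 0.0066), Cplx2 (-0.088 to 0.20), Snap25 (-0.10 to 0.058), Stx1a (-0.051 to 0.20), Syp (-0.027 to 0.22), Syt1 (-0.063 to 0.10) and Vamp2 (-0.034 to 0.072).

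Counts over all genes moved by more than 1.5 times in A18w over A6w (26 in the fit reported, 598 without the filter, 74 with the block, 235 with DESeq2, 0 with only the libraries compared, 2 to 93 with a library left out) and in the averaged genotype difference (10, against 124, 16 and 31, and 6 to 11 with a library left out). For E17.5, P4, A6w and A18w, genotype calls over all genes were 0, against 105, 225, 262 and 107 without the filter, 11, 13, 29 and 3 with DESeq2, and 7, 5, 4 and 4 with the block. The test of genotype by stage had 0, against 466, 8 and 9. With 2 libraries per group, small differences at a single stage could be missed.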

Other observations

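Genes that fell in A6w and A18w together over E17.5 were looked up after their values had been seen. Of the other SNARE genes, those that fell were Snap23, Snap29, Stx2, Stx7, Stx12 and Vamp3, which serve fusion in many cell types, with log2 fold changes of -0.34 to -0.75. As many genes of that list rose, among them Stx4a and Vamp4, and 35.5% of all genes fell in this comparison. Snap23, a relative of Snap25, averaged 8.25 CPM at A6w and A18w against 13.5 CPM at E17.5 (-0.71 ± 0.14, edgeR adjusted p = 0.000479). Of the vesicular glutamate transporters, Slc17a6 fell (27.9 against 57.1 CPM, -1.04 ± 0.19, edgeR adjusted p = 0.000270), where Slc17a7 rose to 1656 CPM against 55.9 CPM at E17.5. Slc17a6 is the main transporter of thalamic neurons, and the thalamic marker sum was 29.5 to 97.5 CPM at A6w and A18w against 82.6 to 296 CPM at E17.5, whose part in this was not tested. Syn3, the synapsin known for early neuronal development, fell by 1.37 on the log2 scale while Syn2 rose by 3.14.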
